A study of Mus musculus with 4 samples.

Results

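The genes described here are 10 that mark the FoxO arm of muscle protein breakdown: the forkhead factors Foxo1, Foxo3 and Foxo4, the transcription factors Klf15 and Cebpd, and the ubiquitin ligase genes Fbxo32, Trim63, Fbxo31, Fbxo21 and Mul1. They were chosen by symbol, and all 10 were measured among 15103 genes tested. Expression was read on Affymetrix arrays in muscle of 8 male C57Bl/6 mice, namely the tibialis cranialis that lifts the foot. The mice were put on a high fat diet at 8 weeks of age, and both groups share that diet. At 4 weeks on the diet 1 leg received AAV8 ProMyo and the other leg saline, by injection into this muscle, and the muscles were taken 10 weeks later at 22 weeks of age. AAV8 is an adeno-associated virus used to carry genes into muscle. The ProMyo cargo encodes the myostatin propeptide, which holds this inhibitor of muscle growth away from its receptor. Which promoter drives the cargo is not given here, the control leg received no empty vector, and the propeptide itself was not analysed here. Each array carried RNA mixed from 4 animals, so there were 2 ProMyo arrays and 2 saline arrays, 1 of each from animals 1-4 and 1 of each from animals 5-8, and the spread between single mice is not visible.

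FoxO factors are held in the cytoplasm when the growth factor kinase AKT phosphorylates them, and they enter the nucleus when that signal falls. In muscle they then switch on genes of the ubiquitin ligases that tag fibre proteins for the proteasome. Myostatin signals through Smad proteins and is known to dampen AKT, while Klf15 and Cebpd answer to glucocorticoids and, for Cebpd, to inflammatory signals. FoxO activity is set largely by phosphorylation and location in the cell, which an array does not read, so the values below are transcript signals only.

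The start of Trim63 is shown because it holds the letters of both kinds of input next to each other. RefSeq windows of build GRCm38.p6 were given for 7 of the 10 genes (Trim63, Foxo1, Foxo3, Mul1, Fbxo21, Fbxo31 and Klf15), and the 250 bases before each start were searched on both strands. The FoxO core letters GTAAACA were found in 1 of these 7 windows, that of Trim63, and in 3.17% of all 32851 windows. The window lies at chr4:134314870-134315119 on the plus strand and is written 5′ to 3′.
Trim63 start, 250 bases before the start: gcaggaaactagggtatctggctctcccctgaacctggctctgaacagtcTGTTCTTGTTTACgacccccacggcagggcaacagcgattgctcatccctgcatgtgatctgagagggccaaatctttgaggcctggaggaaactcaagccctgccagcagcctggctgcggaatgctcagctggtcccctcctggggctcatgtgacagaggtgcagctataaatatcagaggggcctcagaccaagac
The capitals mark TGTTCT at positions -200 to -195, counted back from the start, and TGTTTAC at -194 to -188. TGTTCT is AGAACA, 1 arm of a glucocorticoid receptor element, read on the other strand, and 16.1% of all windows held it. TGTTTAC is the FoxO core read on the other strand, and the 2 runs adjoin without overlap. The C/EBP letters TTGCGCAA were in none of the 7 windows and in 0.164% of all windows, and a match or its absence describes these letters only.

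Values are the deposited log2 signals per probe set, where 1 unit is a 2-fold step. Array medians lay between 1.06 and 1.11. The saline 5-8 array stood apart, with an upper quartile of 2.97 against 3.15 to 3.20 and hybridization controls averaging 11.1 against 10.1 to 10.2. The signal of the 3' over the 5' probe sets, which follows RNA integrity, parted the groups: it was 0.58 and 0.74 log2 units for Gapdh on the ProMyo arrays and 0.90 and 0.81 on the saline arrays, and for Actb 1.64 and 1.72 against 1.96 and 1.80. The part of this difference in the results below was not tested. Control probe sets for Bacillus transcripts, at most 0.99 on any array, mark the background. Muscle fibre markers were bright on all arrays, with the alpha-actin gene Acta1 at 11.69 to 11.96 and the fast myosin gene Myh4 at 11.91 to 12.16, as the tissue label says. The 10 genes had 22 probe sets that name 1 gene, and 19 of these were above the background controls on all 4 arrays. The brightest probe set of a gene, by the mean of the arrays, stands for it, and the others are given beside it.

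None of the 10 genes passed the test of ProMyo against saline muscle. By limma's test with Benjamini-Hochberg adjustment over all 15103 genes, 0 of the 10 had an adjusted p under 0.05 (adjusted p = 0.828 to 0.997), and the share of all genes called was 0%. At an unadjusted p under 0.05 limma called 0 of the 10 and 5.79% of all genes. For a single gene, an exact two-sided permutation test of 2 arrays against 2 cannot go below p = 0.333. The direction differed among the genes: in both pools of animals 2 were higher in the ProMyo leg (Fbxo32 and Fbxo21), 3 were lower in both (Trim63, Fbxo31 and Cebpd) and 5 had opposite signs in the pools (Mul1, Foxo1, Foxo3, Foxo4 and Klf15). Among all genes 29.0% were higher in both pools and 24.0% lower in both. The median difference of the 10 genes was -0.036 on the log2 scale, and 0.013 over all genes. Their median absolute difference, 0.16, was also that of all genes.

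**Figure D1:**
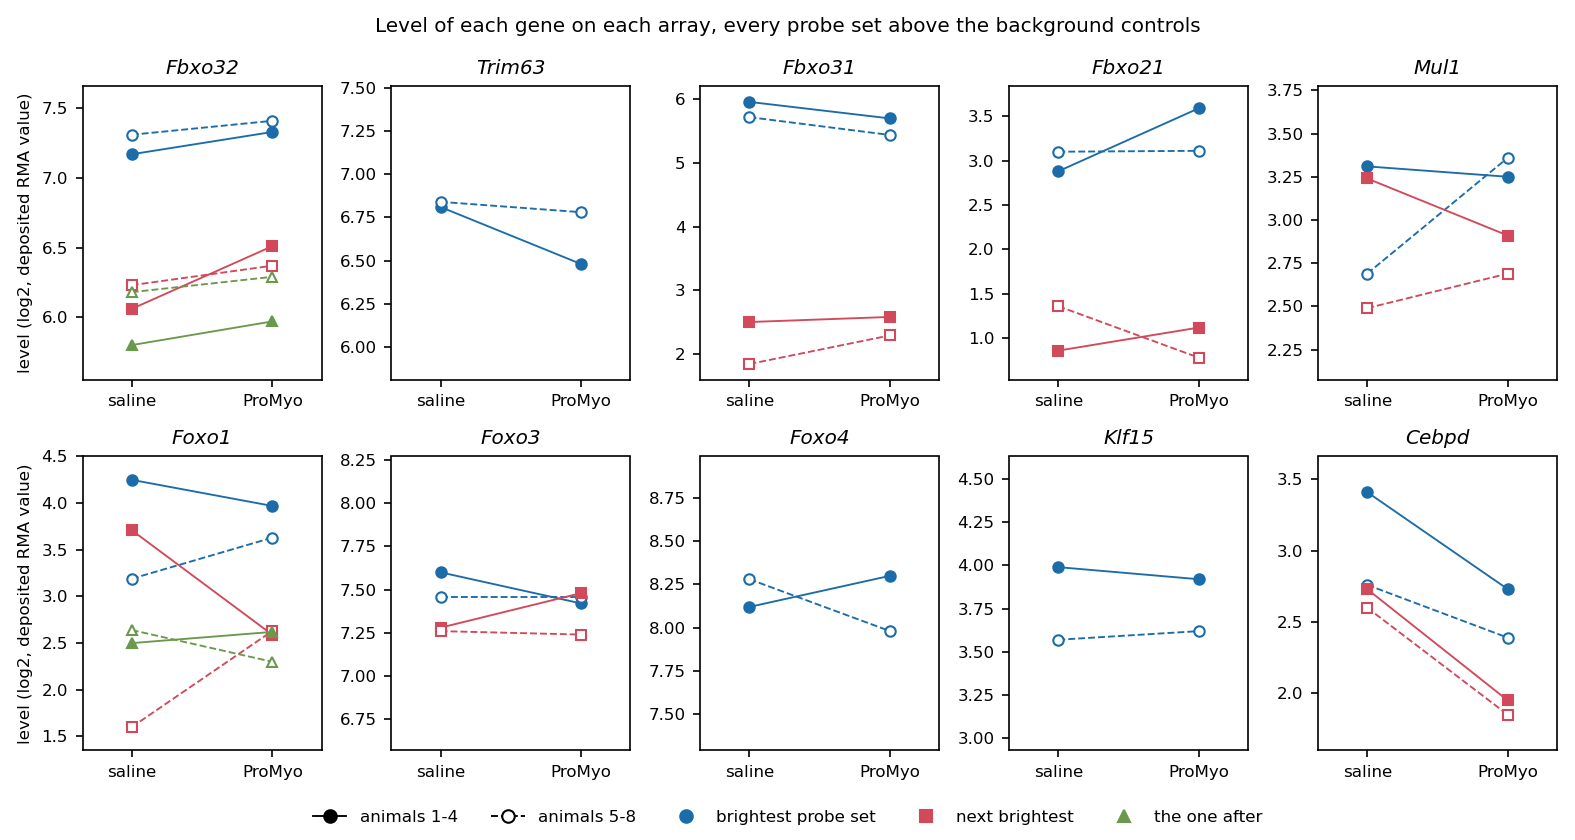
Deposited log2 level of each gene in saline and ProMyo muscle, 1 panel a gene, with lines joining the legs of the same pool of animals (filled points and full lines for animals 1-4, open points and dashed lines for animals 5-8) and colours for the probe sets above the background controls. Each panel has its own axis that does not start at 0; all lines run down in Cebpd and up in Fbxo32, while the lines of Foxo1 cross.

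The FoxO factors themselves showed no shared direction. Foxo1, the forkhead factor that also drives fasting genes of metabolism, read 4.25 and 3.19 in saline muscle of animals 1-4 and 5-8, and 3.97 and 3.63 in ProMyo muscle. Both ProMyo arrays lay between the saline arrays. ProMyo minus saline was -0.28 in animals 1-4 and 0.44 in animals 5-8, with a fitted difference of 0.082 ± 0.38 (log2 ± SE, n = 2 arrays per group; limma, adjusted p = 0.986). The gap of 1.06 between the saline pools was at least as large as that of 97.1% of all genes, whose median gap was 0.24, and the ProMyo pools were 0.34 apart. A further probe set showed a wider gap of the same direction, with 3.71 in saline 1-4 and 1.60 in saline 5-8 against 2.59 and 2.63 in ProMyo muscle. The next one, at 2.50 and 2.64 in saline and 2.62 and 2.30 in ProMyo muscle, did not show it. Foxo1 thus rests on which saline array is used: the difference was -0.45 without saline 5-8 and 0.61 without saline 1-4.

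Foxo3, the factor best known for driving Fbxo32 and autophagy genes in muscle, spanned a narrow range. It read 7.60 and 7.46 in saline muscle of animals 1-4 and 5-8 and 7.42 and 7.46 in ProMyo muscle, a difference of -0.090 ± 0.16 (limma, adjusted p = 0.948). The groups overlapped. The next brightest probe set, with 7.28 and 7.26 in saline and 7.48 and 7.24 in ProMyo muscle, gave a difference of the opposite sign, 0.094. Foxo4, a further FoxO factor present in muscle, read 8.12 and 8.28 in saline and 8.30 and 7.98 in ProMyo muscle, a difference of -0.056 ± 0.19 (limma, adjusted p = 0.980). Its sign turned between the pools, with 0.19 in animals 1-4 and -0.30 in animals 5-8. One other probe set each of Foxo1, Foxo3 and Foxo4 lay within the background controls on 3 or 4 arrays and gives no information.

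The transcription factors Cebpd and Klf15 parted. Cebpd, which encodes C/EBP delta, read 3.41 in saline 1-4 and 2.76 in saline 5-8, and 2.73 and 2.39 in ProMyo muscle of the same pools. Both ProMyo arrays were below both saline arrays, by a narrow margin between saline 5-8 and ProMyo 1-4. The difference was -0.68 in animals 1-4 and -0.37 in animals 5-8, and the fitted one -0.53 ± 0.28, which put saline muscle 1.44-fold above ProMyo muscle (limma, adjusted p = 0.828). Its size depended on single arrays: it was -0.20 without saline 1-4, -0.85 without saline 5-8 and -0.35 without ProMyo 5-8. A difference as low or lower was found in 2.80% of all genes.

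The other probe set of Cebpd showed a wider and more even separation. It read 2.73 and 2.60 in saline muscle and 1.95 and 1.85 in ProMyo muscle, with differences of -0.78 in animals 1-4 and -0.76 in animals 5-8. Saline muscle was 1.70-fold above ProMyo muscle on this probe set. In a limma fit of 33787 probe sets, each tested on its own, its difference of -0.77 ± 0.17 had an unadjusted p of 0.00511, where 6.30% of all probe sets had one under 0.05, and an adjusted p of 0.765; that fit called 0.00296% of probe sets, none of these genes. Cebpd was the 1 gene of the 10 with a probe set past 1.5-fold, the same way, in animals 1-4 and in animals 5-8. The brightest probe set did not pass 1.5-fold in animals 5-8, so by the rule for genes 0 of the 10 did, against 1.60% of all genes (1.03% higher and 0.563% lower).

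Cebpd is also expressed by fibroblasts, macrophages and fat cells, and the marker lists of other cells of whole muscle moved in different directions beside it. Of the fibroblast markers 5 of 6 were lower in both pools, and their summed linear signal was 770 to 805 on the ProMyo arrays and 929 to 1050 on the saline arrays. Of the macrophage markers 4 of 7 were lower in both pools and 1 higher, with sums of 161 to 176 against 190 to 231. Of the tendon markers 4 of 6 were lower in animals 1-4 and 5-8 alike, with sums of 769 to 860 against 1100 to 1150. Of the fat cell markers 3 of 6 were measured, none with the same sign in both pools, and the sums overlapped, 821 to 825 against 818 to 888. Such sums follow their brightest genes: Fabp4 for fat cells, Fmod for tendon, and Col1a1, Dcn and Col3a1 for fibroblasts. Among the latter Dcn was at 0.027, against -0.68 for Col1a1 and -0.19 for Col3a1. Pi16 of the fibroblast list and Chad of the tendon list were past 1.5-fold lower in both pools. Their differences were -0.96 ± 0.20 and -1.24 ± 0.28 (limma, adjusted p = 0.822 for both). The next brightest probe set of Pi16 lay within the background controls on 3 arrays. Adipoq, which defines fat cells, read 1.39 and 0.81 in ProMyo and 1.11 and 2.27 in saline muscle. Of the 3 Schwann cell markers measured 2, Mbp and Mag, were lower in both pools, with sums of 123 to 138 against 139 to 154. These sums follow the brightest gene, Pmp22, whose signs differed between the pools, with 0.025 in animals 1-4 and -0.30 in animals 5-8. Mbp was at -0.76 ± 0.21, but its next brightest probe set read -0.075, with opposite signs in the pools. Endothelial markers lay the other way, with 3 of 5 higher in both pools, none lower, and sums of 45.2 to 47.8 against 38.9 to 44.6. Smooth muscle markers were split, with Tagln at 0.78 and past 1.5-fold in both pools, Acta2 at -0.46 and overlapping sums of 100 to 113 against 110 to 137. The 1 blood marker measured, Alas2, was mixed, and of the fibre markers 7 of 8 were higher in both pools. Lep, Mag, Cnn1 and Alas2 read at most 0.94 on any array, within or near the background controls, so their directions are uncertain. Mag is 1 of the 2 Schwann cell markers counted as lower. The part of the marker lists in the Cebpd values was not tested, and in whole muscle fewer cells of a type and less RNA per cell cannot be told apart.

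Klf15, a factor that turns muscle towards use of amino acids and fat, differed least. It read 3.99 and 3.57 in saline muscle and 3.92 and 3.62 in ProMyo muscle of animals 1-4 and 5-8. The pools differed from each other more than the legs did, by 0.42 in saline and 0.30 in ProMyo muscle, against a fitted difference between groups of -0.016 ± 0.22 (limma, adjusted p = 0.997). The absolute difference was the smallest of the 10, and 5.79% of all genes had one as small or smaller.

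The 2 classical atrophy ligases went in opposite directions by small amounts. Fbxo32, which encodes atrogin-1, the F-box protein that brings substrates to an SCF ligase, read 7.17 and 7.31 in saline muscle and 7.33 and 7.41 in ProMyo muscle. The groups did not overlap, by a margin of hundredths. The difference was 0.16 in animals 1-4 and 0.099 in animals 5-8, fitted as 0.13 ± 0.16, or 1.09-fold higher in ProMyo muscle (limma, adjusted p = 0.915). It was 0.058 without saline 1-4 and 0.20 without saline 5-8. All 3 probe sets of Fbxo32 gave the higher value in the ProMyo leg, in animals 1-4 and in animals 5-8. The next brightest read 6.06 and 6.23 in saline and 6.51 and 6.37 in ProMyo muscle, a difference of 0.30, and the remaining one 5.80 and 6.18 against 5.97 and 6.29, a difference of 0.14.

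Trim63 encodes MuRF1, a RING ligase of the thick filament and M-band. It read 6.81 and 6.84 in saline muscle, 6.48 in ProMyo 1-4 and 6.78 in ProMyo 5-8. Both ProMyo values were below both saline values, and most of the distance came from animals 1-4, with -0.33 against -0.060 in animals 5-8. The fitted difference was -0.19 ± 0.18, which put saline muscle 1.14-fold above ProMyo muscle (limma, adjusted p = 0.884), and it was -0.042 without the ProMyo 1-4 array. Trim63 had 1 probe set, so no further reading of it could be set beside these values. The window printed above holds FoxO and glucocorticoid receptor letters. The exact letters of the full glucocorticoid receptor element, with both arms, were in 0 of the 7 windows and in 0.00913% of all windows. In the Trim63 window the letters at the place of the other arm differ from it by 1 letter. The site is thus closer to the full element than the count of 1 arm shows. How many of all windows come as close was not counted. Whether these letters bear on the Trim63 values was not tested.

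**Figure D2:**
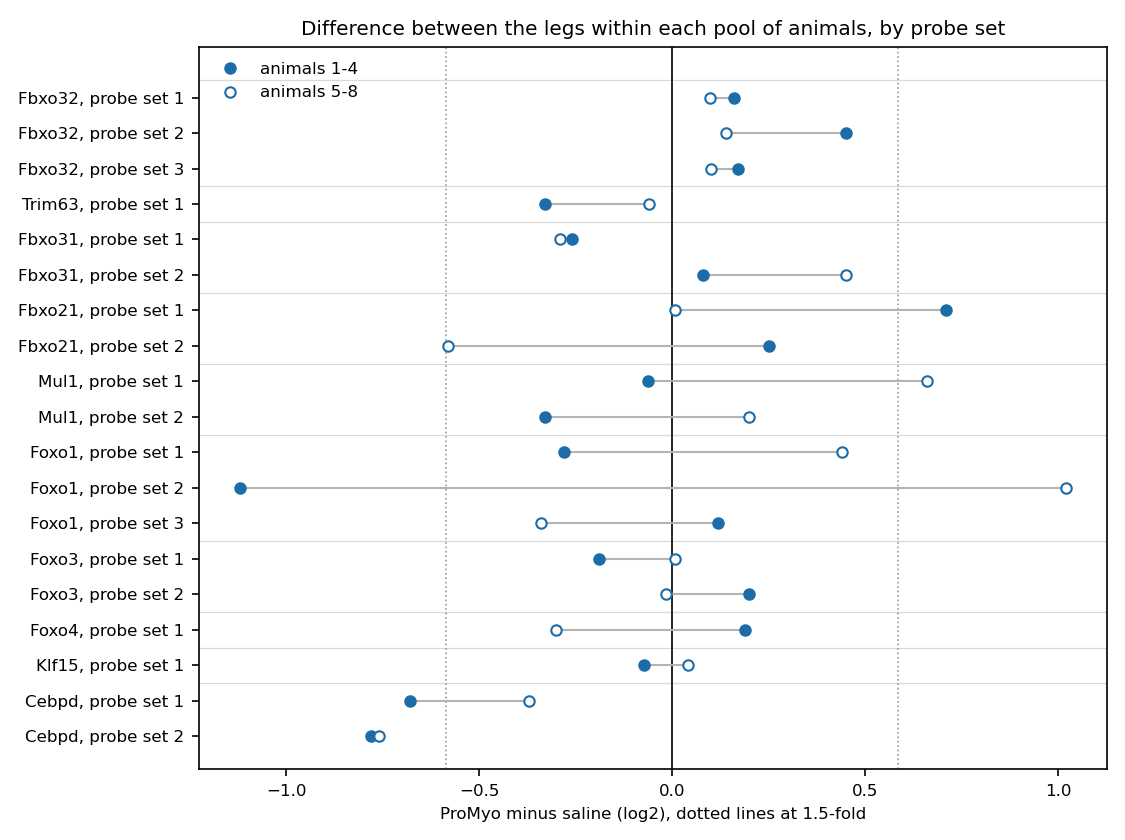
Difference between ProMyo and saline muscle (log2) within animals 1-4 (filled) and within animals 5-8 (open) for the 19 probe sets above the background controls, with dotted lines at 1.5-fold and probe sets numbered from the brightest. All 3 probe sets of Fbxo32 are right of 0 and both of Cebpd left of 0, while the probe sets of Fbxo31 lie on opposite sides.

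The other 3 ligase genes gave readings that their probe sets did not share. Fbxo31, an F-box gene among those reported to respond to FoxO in muscle, read 5.96 and 5.72 in saline muscle and 5.70 and 5.44 in ProMyo muscle. The pools were even, at -0.26 in animals 1-4 and -0.29 in animals 5-8, with a fitted difference of -0.27 ± 0.19 (limma, adjusted p = 0.856). Its size depended on single arrays: it was -0.14 without ProMyo 5-8, -0.15 without saline 1-4, -0.40 without ProMyo 1-4 and -0.39 without saline 5-8. The dimmer probe set of Fbxo31 went the other way, from 2.50 and 1.84 in saline to 2.58 and 2.29 in ProMyo muscle, a difference of 0.27. Its saline arrays lay 0.66 apart and overlapped with ProMyo muscle.

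Fbxo21, whose F-box protein is known in atrophy work as SMART, had the highest difference of the 10 genes. It read 2.88 and 3.10 in saline muscle, 3.59 in ProMyo 1-4 and 3.11 in ProMyo 5-8. The difference came from animals 1-4, at 0.71, and was 0.0066 in animals 5-8. The fit gave 0.36 ± 0.22 (limma, adjusted p = 0.842), with 0.12 without the ProMyo 1-4 array and 0.60 without the ProMyo 5-8 array. A second probe set was near the background controls, with 0.86 and 1.36 in saline and 1.12 and 0.78 in ProMyo muscle, and read -0.16.

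Mul1, a ligase of the outer mitochondrial membrane, read 3.31 in saline 1-4 and 2.69 in saline 5-8, against 3.25 and 3.36 in ProMyo muscle. Saline 5-8 was the low array, and the other 3 lay close together. The difference was -0.063 in animals 1-4 and 0.66 in animals 5-8, fitted as 0.30 ± 0.25 (limma, adjusted p = 0.867), and it was -0.0094 without saline 5-8. The other probe set, at 3.24 and 2.49 in saline and 2.91 and 2.69 in ProMyo muscle, also had its lowest value in saline 5-8 and read -0.065.

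Across the 10 genes the saline pools lay further apart than the groups in 7. In 6 of the 10 the saline gap was wider than the ProMyo gap. Over all genes the median saline gap was 0.24, the median ProMyo gap 0.19 and the median absolute difference between groups 0.16. The same order thus held for the medians of all genes, and the shares of all genes were not counted. The groups did not overlap in 5 of the 10 genes, 2 higher and 3 lower in ProMyo muscle, where 17.8% of all genes were higher and 15.7% lower without overlap, 33.5% together. Over the 19 probe sets above background, 5 were higher in both pools, 4 lower in both and 10 mixed. Fbxo32 gave 3 of the 5 and Cebpd 2 of the 4, and the shares over all probe sets were not counted. Without saline 5-8 both ProMyo arrays were above the remaining saline array in 2 genes and below it in 6, and without saline 1-4 above in 5 and below in 3. In each case that is 8 of the 10 genes, where 66.4% of all genes lay outside the remaining saline array without saline 5-8 and 72.4% without saline 1-4.

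**Figure D3:**
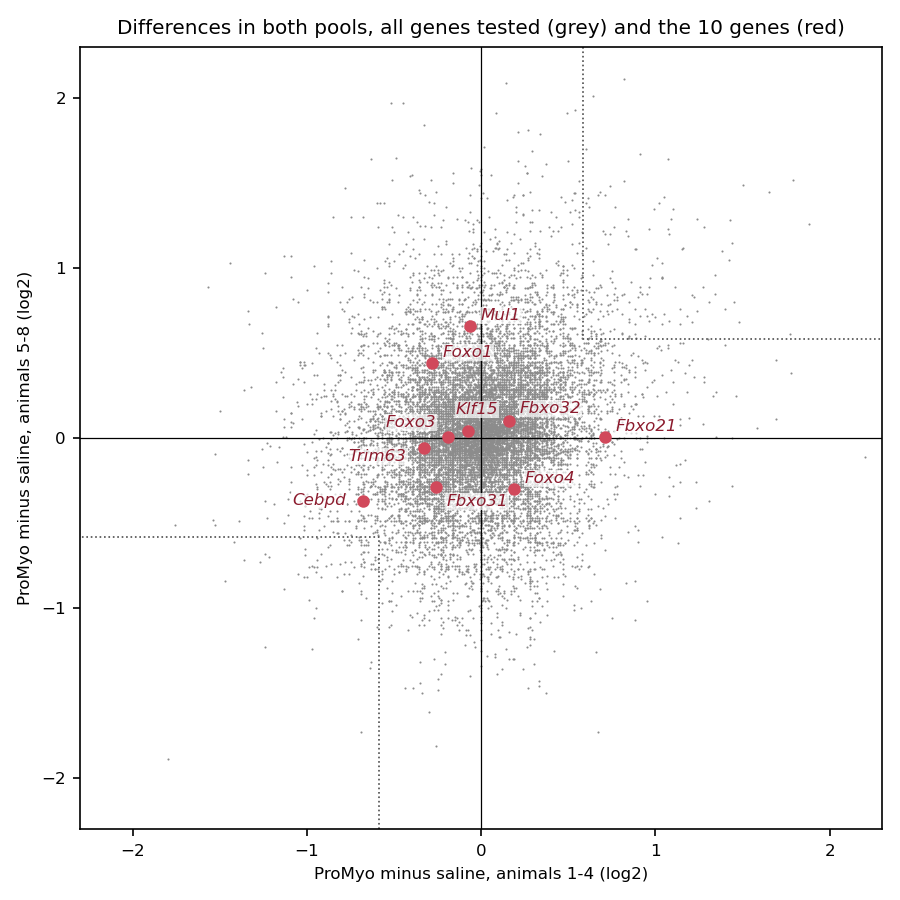
Difference between ProMyo and saline muscle (log2) in animals 1-4 on the horizontal axis and in animals 5-8 on the vertical axis, 1 grey point for each of 15103 genes and red points for the 10 genes. Dotted corners hold genes past 1.5-fold in both pools; none of the 10 lies there, with Cebpd at -0.68 and -0.37 the nearest to the lower corner.

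Genes around these 10 were grouped by role, and 0 genes of the 6 groups passed limma's test over all genes. Other ubiquitin ligases of muscle had a median difference of 0.085, with 5 of 14 measured genes higher in both pools and 4 lower. Fbxo30, the F-box gene known as MUSA1, read 5.89 and 6.27 in saline and 6.02 and 6.43 in ProMyo muscle, a difference of 0.15 ± 0.23. Trim54, a MuRF relative of Trim63, was at -0.022 ± 0.18. The smallest unadjusted p-values of this group belonged to the HECT ligase Itch with 0.45 ± 0.16, Znrf2 with 0.48 ± 0.19 and Fbxl4 with 0.48 ± 0.24 (limma, adjusted p = 0.822 to 0.825). The next brightest probe set of Itch read 0.30 and that of Znrf2 -0.20.

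The SCF core and ubiquitin conjugation genes, the machinery that Fbxo32 and other F-box proteins plug into, had a median of 0.087, with 4 of 13 higher in both pools and 1 lower, Ube2b at -0.053. The adaptor Skp1, which binds the F-box, was at 0.00083 ± 0.15 and the scaffold Cul1 at 0.12 ± 0.17. Rbx1, the RING subunit, was higher in both pools by 0.45 (limma, adjusted p = 0.822), from 0.57 and 0.58 in saline muscle to 1.01 and 1.03 in ProMyo muscle. Its saline values lay within the background controls, so this size is uncertain. The conjugating enzymes Ube2e1 and Ube2d1 were at 0.19 ± 0.17 and 0.18 ± 0.17.

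Other FoxO target genes had a median of 0.013, with 5 of 22 higher in both pools and 7 lower. Pdk4, the kinase that shuts pyruvate dehydrogenase and a well known FoxO target, read 11.77 and 11.75 in saline and 11.73 and 11.91 in ProMyo muscle, a difference of 0.058 ± 0.16. Eif4ebp1, a translation repressor, was at -0.44 ± 0.21, with -0.17 on its next probe set, and the lysosomal protease gene Ctsl at 0.24 ± 0.16, with -0.13 on its next. Bnip3 and Map1lc3b, of mitophagy and autophagy, were at -0.090 ± 0.16 and -0.13 ± 0.15. The 1 gene of this group past 1.5-fold in both pools was Gadd45a, a stress gene induced in atrophying muscle, at 4.50 and 4.55 in saline and 5.35 and 5.35 in ProMyo muscle. Its difference of 0.82 ± 0.15 did not pass either (limma, adjusted p = 0.822).

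Kinases and cofactors that act on FoxO had a median of 0.068, with 10 of 21 higher in both pools and 2 lower. The kinases that expel FoxO from the nucleus stood at 0.19 ± 0.20 for Akt1, -0.078 ± 0.23 for Akt2 and -0.039 ± 0.17 for Sgk1. Phlpp1, a phosphatase of AKT, was at 0.24 ± 0.17, Sgk3 at 0.19 ± 0.19, with -0.13 on its next probe set, and the mitochondrial deacetylase gene Sirt3 at -0.28 ± 0.18. Ppargc1a, the PGC-1 alpha gene, whose product restrains FoxO3, was at 0.16 ± 0.19. The largest of these absolute differences, that of Sirt3, was 0.28, so this group stayed within a narrow band.

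Glucocorticoid response genes, which would share an input with Klf15 and Cebpd, had a median of 0.019, with 4 of 18 higher in both pools and 4 lower. The receptor gene Nr3c1 was at 0.073 ± 0.17, and its well known targets Fkbp5 and Tsc22d3 at -0.11 ± 0.29 and -0.0041 ± 0.17. Cebpb, the closest relative of Cebpd on the list, was at -0.028 ± 0.16, with 3.64 and 3.53 in saline and 3.57 and 3.54 in ProMyo muscle. The metallothionein genes Mt1 and Mt2, which answer to metals and inflammation as well as glucocorticoids, were lower in both pools, by -0.83 ± 0.27 and -0.67 ± 0.22 (limma, adjusted p = 0.822 for both). Mt1 read 5.89 and 5.27 in saline and 4.95 and 4.55 in ProMyo muscle, and was the 1 gene of this group past 1.5-fold in both pools. The clock and glucocorticoid gene Per1 was at 0.35 ± 0.26.

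Denervation and myogenin genes, the other known input to Fbxo32 and Trim63, had a median of 0.013, with 5 of 10 higher in both pools and 3 lower. Myog, the myogenin gene, read 1.17 and 0.80 in saline and 0.84 and 0.89 in ProMyo muscle, near the background controls. Ncam1, an adhesion molecule of denervated and regenerating fibres and of nerve, was past 1.5-fold in both pools, at 4.31 and 4.89 in saline and 5.29 and 5.91 in ProMyo muscle (difference 1.00 ± 0.30; limma, adjusted p = 0.822). Its next brightest probe set read 3.16 and 3.16 in saline and 2.64 and 2.55 in ProMyo muscle, a difference of -0.56, so the probe sets of Ncam1 disagree in sign. Myh3, the embryonic myosin gene, was at -0.40 ± 0.20, from 1.48 and 1.21 in saline to 0.79 and 1.10 in ProMyo muscle, near the background controls. The acetylcholine receptor gene Chrnd was within the background controls, and Gdf5, at 0.53 to 1.12, was within or near them. These are the 3 genes counted as lower, so that count is uncertain.

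**Figure D4:**
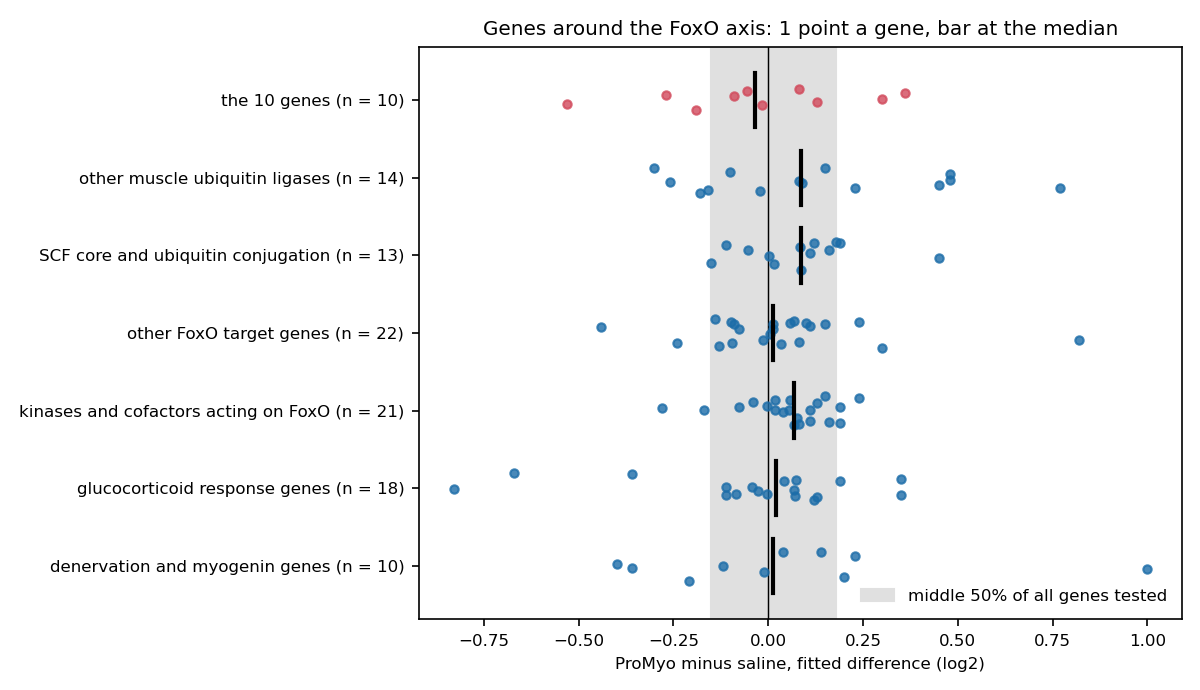
Fitted difference between ProMyo and saline muscle (log2), 1 point a gene, for the 10 genes (red) and 6 groups around them (blue), with a black bar at each median and a grey band over the middle 50% of all genes tested, -0.15 to 0.18. All 7 medians lie inside the band; Gadd45a at 0.82, Ncam1 at 1.00 and Mt1 at -0.83 stand furthest out.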

How the data were processed

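The authors deposited log2 expression values per probe set for 4 arrays. Per the submitters' processing notes, RMA and Affymetrix Expression Console were used; the sources used here give neither versions nor the log base, and the range of -0.45 to 13.2 was read as log2. Per the labels, each array carried equal amounts of RNA from 4 animals. Array medians near 1 are low for RMA, so folds hold on the deposited scale. Of 45101 probe sets, 34945 had 1 gene symbol and were used; 64 array controls were left out. The brightest probe set stood for a gene, and those with a mean under the 25th percentile (0.45) were dropped, which left 15103 genes. The groups were compared in limma 3.58.1 (R 4.3.3; lmFit and eBayes, Benjamini-Hochberg, threshold 0.05), with 2 residual and 3.16 prior degrees of freedom; the script was checked on simulated arrays. The number of arrays limits the precision: the median standard error was 0.19.

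Both legs came from the same mice, so same-numbered pools are paired by design; over genes, their deviations from the group means had r = 0.16. The main fit leaves the pairing out. The members, lists, tests and alternatives were chosen with earlier results of these data known. Besides the 10 genes, the text names genes of the 6 groups by role past 1.5-fold in both pools and the 3 with the smallest p in each group. Of the cell marker lists it names the genes past 1.5-fold in both pools and a selection of others. Fbxo30, Trim54, Ube2b, Skp1, Cul1, Pdk4, Bnip3, Map1lc3b, Akt1, Akt2, Sgk1, Ppargc1a, Nr3c1, Fkbp5, Tsc22d3, Cebpb and Myog were named for their roles, and Gdf5 for its low signal. These genes were chosen after their values were seen. Listed genes with no probe set of 1 symbol were not analysed here.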

Additional observations from a re-analysis of the deposited data

How the results depend on the processing

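No member passed limma's threshold under any of the 128 member values computed under alternatives, and 115 kept their direction. The replicate block, the filter changes, eBayes with a trend and the fit of every probe set cannot change a member's difference. They change only its error or its adjustment, so their values could not reverse and the count of 115 overstates the stability. With the paired pools as a replicate block limma called 0 genes (smallest adjusted p = 0.681), and the block changed no other call. Trim63 and Klf15 have 1 probe set each. For them the next brightest probe set could not be run, and the mean of probe sets could not change the difference. The signs of Fbxo32, Trim63 and Cebpd held under all alternatives run, but not their sizes: leaving out 1 array at a time gave 0.058 to 0.20, -0.35 to -0.042 and -0.85 to -0.20. Those of 5 genes turned with the next brightest probe set: Fbxo31 at 0.27, Fbxo21 at -0.16, Mul1 at -0.065, Foxo1 at -0.049 and Foxo3 at 0.094; the mean of the probe sets of Foxo3 read 0.039. Leaving out 1 array at a time gave -0.45 to 0.61 for Foxo1, -0.22 to 0.10 for Foxo4, -0.23 to 0.19 for Klf15 and -0.0094 to 0.61 for Mul1.

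Limma called 0 genes in all fits but that of every probe set, which called 1, a probe set with no gene name here. Genes past 1.5-fold in both pools numbered 241, 64.7% of them higher; quantile normalization gave 235 with 52.3% higher, the mean of probe sets 117, every probe set 740, a 2-fold limit 23 and leaving out an array 421 to 1095. The excess of higher genes was absent without saline 5-8, where 262 were higher and 348 lower, or 43.0% higher, against 60.3% to 63.3% without another array. With an array left out 1 pool lacks its partner, so these counts are not the same measure as the 241. Non-overlapping genes numbered 5066, with every probe set 11441 and without an array, where 2 values face 1, 9438 to 10930; members without overlap were then 7 to 8 in place of 5, an alternative chosen after seeing the data.

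List medians moved as follows, and the cause was not tested. Glucocorticoid response genes read -0.0041 with no filter, 0.043 with the filter at the 50th percentile, -0.048 with quantile normalization and 0.043 with the mean of probe sets, and -0.033 to 0.12 without an array. Other FoxO targets read -0.030 with quantile normalization, -0.027 with the mean of probe sets and -0.038 to 0.066 without an array. Kinases and cofactors read 0.014 and 0.0034 with the same 2 settings. Denervation genes read 0.14 with the filter at the 50th percentile and -0.13 to 0.13 without an array, and other ligases -0.10 to 0.11 without an array.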
